A study of Mus musculus with 30 samples.

Results

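The tripartite motif (TRIM) genes described here are 10 members that have been linked to interferon: Trim12a, Trim12c, Trim14, Trim21, Trim25, Trim26, Trim30a, Trim30d, Trim34a and Trim56. They were chosen by name, as the rows of the deposited RNA-seq count table whose Ensembl identifiers carry these symbols, and all 10 were present among 54146 listed genes. The rule used no measured value, though the list was drawn up with earlier results of these data known.

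Expression was measured by polyA RNA-seq in J774A.1, a mouse macrophage cell line. Wild-type (WT) clones WT1, WT2 and WT3 were set against knockout (KO) clones KO1 and KO2, in which a short interspersed element within an intron of Dicer1, named B2_Mm2.Dicer1, had been deleted with CRISPR. Each clone was either untreated (UT) or given mouse interferon gamma (IFNG) at 100 ng/mL during 4 h. Every clone gave 3 libraries in each state, hence 9 WT and 6 KO libraries a treatment and 30 in all. Each KO line is a single clone that had been electroporated, whereas the WT clones were grown up from single cells that had not been, so the deletion cannot be told apart from clone or from electroporation. The labels do not say that libraries of a clone came from separate cultures. Within a clone, p-values therefore measure the spread between libraries, which may be technical. In fits that pooled clones without a clone term, that spread also held differences between clones, while each library still counted as a replicate.

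TRIM proteins are mostly E3 ubiquitin ligases built from a RING finger, B-box and coiled-coil region, often followed by a PRY-SPRY domain that selects the target. Several tune innate immune signalling in macrophages by attaching ubiquitin to nucleic acid sensors and their adaptors, and others bind viral particles directly. Interferons raise many of them. Type I interferon acts through the interferon-stimulated response element (ISRE), and IFNG acts through the gamma-activated site (GAS) and, at later times, through IRF1 at ISRE sequences.

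In mm10 coordinates, 5 of the 10 genes lie side by side on chromosome 7 within 263393 bases that hold 16 listed genes, 9 of them with a Trim symbol. From left to right these are Trim34a (chr7:104244457-104262234, plus strand), Trim12a (chr7:104299894-104315466, minus strand), Trim12c (chr7:104338754-104353362, minus strand), Trim30a (chr7:104409025-104465193, minus strand) and Trim30d (chr7:104470014-104507849, minus strand). Trim21 lies on the same chromosome 1678971 bases before this cluster (chr7:102557921-102565486, minus strand). The others are apart: Trim14 (chr4:46493781-46536141, minus strand), Trim56 (chr5:137105644-137116209, minus strand), Trim25 (chr11:88999376-89020293, plus strand) and Trim26 (chr17:36837134-36859398, plus strand).

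Promoter sequences are shown because the ISRE core was found in most of these genes and GAS in none. RefSeq promoters of GRCm38.p6, running from 250 bases before to 50 after a transcript start, were on hand for 9 of the 10 members, Trim14 being the missing one. The ISRE core was searched as GAAA, any 2 bases and GAAA again, on both strands, and GAS as TTCNNNGAA, which reads the same on both strands. An ISRE core was present in 7 of 9 members and in 3.44% of all 32851 promoters. Because the members were picked for a known link to interferon, and some of these promoters are much alike, this count is not independent evidence. GAS was present in 0 of 9 members and in 8.3% of all promoters, which says only that these letters are not in these windows. In the stretches below, each 150 bases long, 5′ to 3′ along the gene, the capitals mark the ISRE core.
Trim21 (chr7:102565453-102565602, minus strand): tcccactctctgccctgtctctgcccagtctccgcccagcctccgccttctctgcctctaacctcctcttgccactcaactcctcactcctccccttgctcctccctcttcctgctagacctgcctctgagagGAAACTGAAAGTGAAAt
Trim30a (chr7:104465164-104465313, minus strand): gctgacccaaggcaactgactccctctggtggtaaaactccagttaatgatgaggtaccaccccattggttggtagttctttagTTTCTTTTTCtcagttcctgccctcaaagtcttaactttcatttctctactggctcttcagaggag
Trim30d (chr7:104507820-104507969, minus strand): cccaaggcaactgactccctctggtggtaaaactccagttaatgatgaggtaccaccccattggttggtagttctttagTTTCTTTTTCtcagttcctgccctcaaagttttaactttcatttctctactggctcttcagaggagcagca
Trim34a (chr7:104244337-104244486, plus strand): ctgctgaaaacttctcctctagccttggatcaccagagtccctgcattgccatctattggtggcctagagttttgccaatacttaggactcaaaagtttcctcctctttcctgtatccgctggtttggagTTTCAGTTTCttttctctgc
Trim12c (chr7:104353320-104353469, minus strand): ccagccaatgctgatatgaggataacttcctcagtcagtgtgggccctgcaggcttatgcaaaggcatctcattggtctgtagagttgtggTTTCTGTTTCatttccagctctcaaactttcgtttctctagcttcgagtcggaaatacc
Trim12a (chr7:104315466-104315615, minus strand): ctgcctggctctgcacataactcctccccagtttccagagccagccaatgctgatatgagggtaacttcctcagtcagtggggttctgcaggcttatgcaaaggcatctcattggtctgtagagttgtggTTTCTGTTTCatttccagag
Trim26 (chr17:36836966-36837115, plus strand): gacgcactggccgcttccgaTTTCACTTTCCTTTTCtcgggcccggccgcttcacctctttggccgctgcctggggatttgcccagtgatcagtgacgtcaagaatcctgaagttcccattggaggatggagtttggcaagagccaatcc
Trim25 (chr11:88999283-88999432, plus strand): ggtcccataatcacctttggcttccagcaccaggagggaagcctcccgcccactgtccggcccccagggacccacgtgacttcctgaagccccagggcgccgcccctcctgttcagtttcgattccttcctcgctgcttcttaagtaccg

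Each stretch runs from 120 bases before the start to 30 after it, except that of Trim26, which runs from 180 to 31 bases before the start. The match in Trim30a ended 27 bases before the start shown, and a second listed Trim30a promoter (chr7:104446076-104446375, minus strand) held the same letters from 3 to 12 bases after its own start. In Trim30d the match ended 32 bases before the start, and the 300-base promoters of Trim30d and of Trim30a as shown were 90.9% identical. In Trim21, overlapping matches began 14 and 20 bases after the start. The match in Trim12c ended 20 bases before the start, while the same letters in Trim12a began 11 bases after its start, and this pair of promoters was 73.2% identical. In Trim34a the match also began 11 bases after the start. Trim26 held overlapping matches whose first bases lay 160 and 154 bases before the start. Trim25 and Trim56 held no match to either motif. A match is a description of letters, and binding was not measured here.

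Library totals ranged from 15566122 to 37992642 counted fragments. Dicer1, the gene holding the deleted element, had medians of 124.3 CPM (counts scaled to library size) in UT WT and 87.1 in UT KO libraries, and of 156.8 and 88.9 after IFNG. All 8 macrophage markers examined were at 1 CPM or more on average, whereas the summed T cell, B cell and epithelial markers reached at most 0.158 CPM in any library, and the summed fibroblast, dendritic cell and neutrophil markers at most 2.92, 5.45 and 3.48 CPM. Summed macrophage markers were higher in KO (5520 to 6530 CPM) than in WT libraries (3690 to 5360 CPM), and the part of this in the results below was not tested. Irf1, a transcription factor that IFNG is known to induce, rose in every clone, by 4.97 to 5.34 on the log2 scale. WT1 stood apart from WT2 and WT3 for many of the genes below, so comparisons of KO with WT are given with and without it.

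Ranked by fragments scaled by exon length and library size (FPKM), Trim25 had the highest level in UT cells, with a mean of 37.8 FPKM, and its 15 libraries lay above those of every other member. Trim30a followed at 11.1 FPKM, also clear of the next. Trim26 (7.49), Trim56 (6.77), Trim12c (5.84), Trim21 (4.25) and Trim14 (3.76) then formed a run in which each overlapped its neighbour. Trim34a (0.712), Trim30d (0.0934) and Trim12a (0.0450) were low, and Trim12a did not separate from Trim30d. After IFNG the order changed. Trim30a (54.4 FPKM) and Trim25 (53.2 FPKM) then shared the top with overlapping libraries, Trim21 (22.7) and Trim12c (18.6) followed, and Trim26 (10.3), Trim56 (9.11) and Trim14 (4.07) came below them. Trim34a (2.91 FPKM), Trim30d (1.11) and Trim12a (0.133) stayed lowest, and the libraries of Trim14 and Trim34a overlapped.

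**Figure D1:**
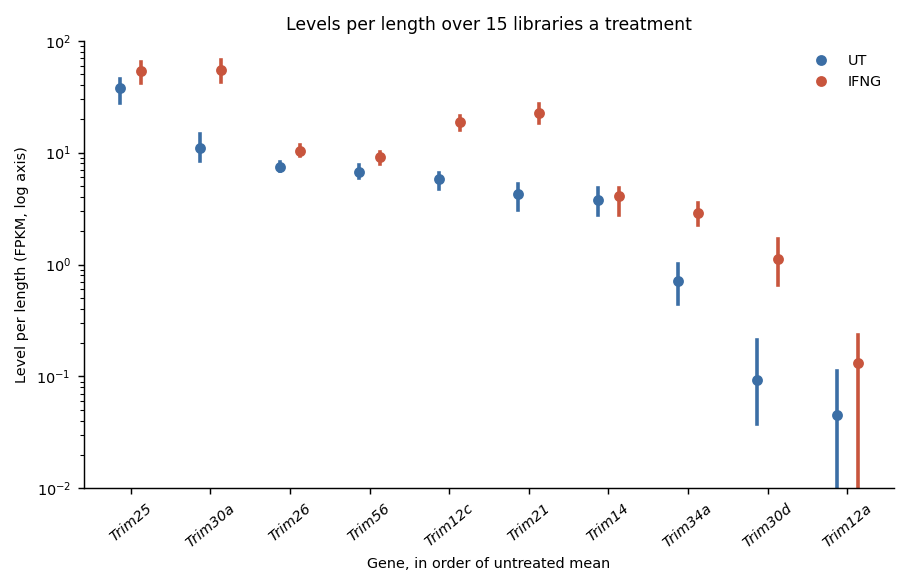
Level per length in FPKM on a log axis for each of the 10 genes, with points for the mean and lines for the lowest to highest of 15 UT (blue) or 15 IFNG (red) libraries. Trim30a moves from a mean of 11.1 to 54.4 and reaches Trim25, and both lines of Trim12a run to the lower edge because libraries with no counts cannot be drawn on a log axis.

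Summed over all 10 genes, the level was 394.9 to 475.5 CPM in UT libraries and 810.9 to 903.2 CPM in IFNG libraries. Trim25 gave 50.1% of that sum in UT cells and 35.2% after IFNG, while the share of Trim30a went from 10.5% to 25.7% and that of Trim21 from 3.64% to 9.71%. In bulk RNA, fewer cells with a transcript and less transcript per cell cannot be told apart, here and in all results below.

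IFNG raised nearly all of these genes in every clone. In WT1, 8 of the 9 tested members passed the edgeR threshold (adjusted p under 0.05) and were higher, where 11.8% of all tested genes were called higher. The count was 8 of 9 in WT2 (17.4% of all genes), 8 of 10 in WT3 (18.6%), 9 of 10 in KO1 (16.2%) and 10 of 10 in KO2 (13.9%). With clones pooled it was 8 of 9 in WT (14.8%) and 9 of 10 in KO (15.8%). With clone as a block in the pooled fits, 9 of 9 and 10 of 10 were called, all higher, where 46.1% and 40.2% of all genes were called in either direction. Trim12c, Trim21, Trim25, Trim26, Trim30a, Trim30d, Trim34a and Trim56 passed in all 5 clones. No member was called lower in any clone. These genes were picked for their known link to interferon, so the direction of the counts is not independent evidence.

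**Figure D2:**
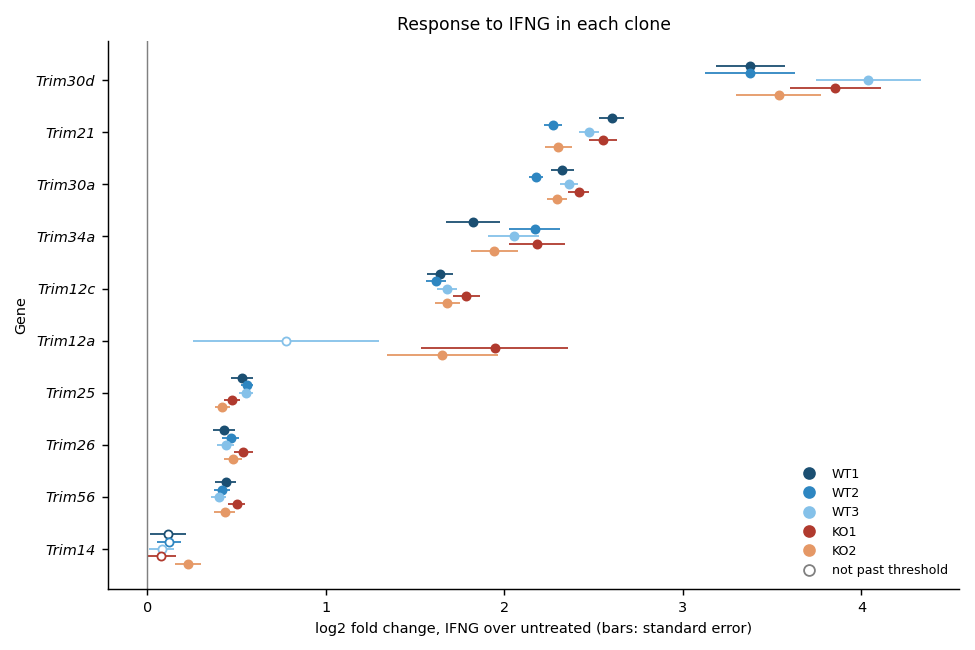
Log2 fold change of IFNG over UT libraries for each gene, with a point per clone and bars of 1 standard error, filled where the edgeR adjusted p was under 0.05. Trim30d lies between 3.38 and 4.04, Trim21, Trim30a, Trim34a and Trim12c between 1.62 and 2.60, and Trim25, Trim26 and Trim56 between 0.40 and 0.56.

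Trim21 is a cytosolic antibody receptor that ubiquitinates antibody-coated virus for destruction. Its level was 11.3 to 19.7 CPM (median 18.4) in UT WT and 68.6 to 101.7 (median 91.3) in IFNG WT libraries. In KO libraries it was 12.7 to 18.5 CPM (median 14.3) untreated and 70.9 to 84.7 (median 83.1) with IFNG. All 15 IFNG libraries lay above all 15 UT libraries. The log2 fold change (log2FC) was 2.60 ± 0.07 (SE) in WT1, 2.27 ± 0.05 in WT2, 2.47 ± 0.06 in WT3, 2.55 ± 0.08 in KO1 and 2.30 ± 0.08 in KO2, hence 4.83- to 6.07-fold, with edgeR adjusted p of at most 5.65e-12.

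Trim30a belongs to a rodent-expanded branch and restrains Toll-like receptor signalling by driving degradation of TAB2 and TAB3. It was at 34.7 to 59.96 CPM (median 52.0) in UT WT and 177 to 278 (median 259.6) in IFNG WT libraries. KO libraries held 35.2 to 44.4 CPM (median 40.2) untreated and 188 to 219 (median 200.6) after IFNG. UT and IFNG libraries did not overlap, and the log2FC per clone lay between 2.18 (WT2, SE 0.0373) and 2.42 (KO1, SE 0.0592), or 4.52- to 5.34-fold, with edgeR adjusted p of at most 2.07e-12.

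Trim30d, its near neighbour and close relative, had the largest fold change of the 10 genes and one of the lowest levels. UT libraries held 0.142 to 0.795 CPM, from 3 to 21 fragments each, and IFNG libraries 2.47 to 6.34 CPM, from 42 to 155 fragments. Every IFNG library exceeded every UT library. The log2FC was 3.38 ± 0.19 in WT1, 3.38 ± 0.25 in WT2, 4.04 ± 0.29 in WT3, 3.85 ± 0.25 in KO1 and 3.54 ± 0.24 in KO2, which is 10.4- to 16.4-fold. Of the 150-base windows of its transcripts, 3.23% recur in Trim30a, and fragments that align to both genes alike were not counted.

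Trim34a and Trim12c are relatives of human TRIM34 and TRIM5, which act against retroviral capsids, and Trim12c has been tied to type I interferon production. Trim34a was at 1.15 to 2.61 CPM (median 1.84) in UT and 5.86 to 9.25 CPM (median 7.60) in IFNG libraries. Its libraries separated fully, with log2FC between 1.82 (WT1, SE 0.151) and 2.18 (KO1, SE 0.155). Of its 150-base windows, 8.06% recur in Trim34b, the largest share among the members. Trim12c was at 17.7 to 24.8 CPM (median 21.8) in UT and 60.2 to 79.4 CPM (median 69.9) in IFNG libraries, again with no overlap. Its log2FC of 1.62 to 1.79 (SE at most 0.0765) spanned the narrowest range among the 5 strongly raised genes, 3.07- to 3.45-fold. Gm27995 shares 100 bases of exon with it on the same strand, 2.67% of its exon length, and fragments there were counted for both.

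Trim12a, another TRIM5 relative, was barely expressed, with 0 to 15 fragments per UT library and 0 to 38 per IFNG library. WT libraries overlapped between treatments, at 0 to 0.642 CPM untreated and 0 to 0.936 with IFNG. KO libraries did not, at 0.124 to 0.470 CPM untreated and 0.581 to 1.35 with IFNG. The filter on low counts left it out in WT1 and WT2. Where it was tested, the log2FC was 0.78 ± 0.52 in WT3 (edgeR adjusted p = 0.276), 1.94 ± 0.41 in KO1 (adjusted p = 0.0025) and 1.65 ± 0.31 in KO2 (adjusted p = 0.000816). At this depth the WT values allow no statement on whether KO and WT responses differ, as the interaction of genotype with IFNG ran from -0.70 to 1.63 (log2, 2 SE on each side).

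**Figure D3:**
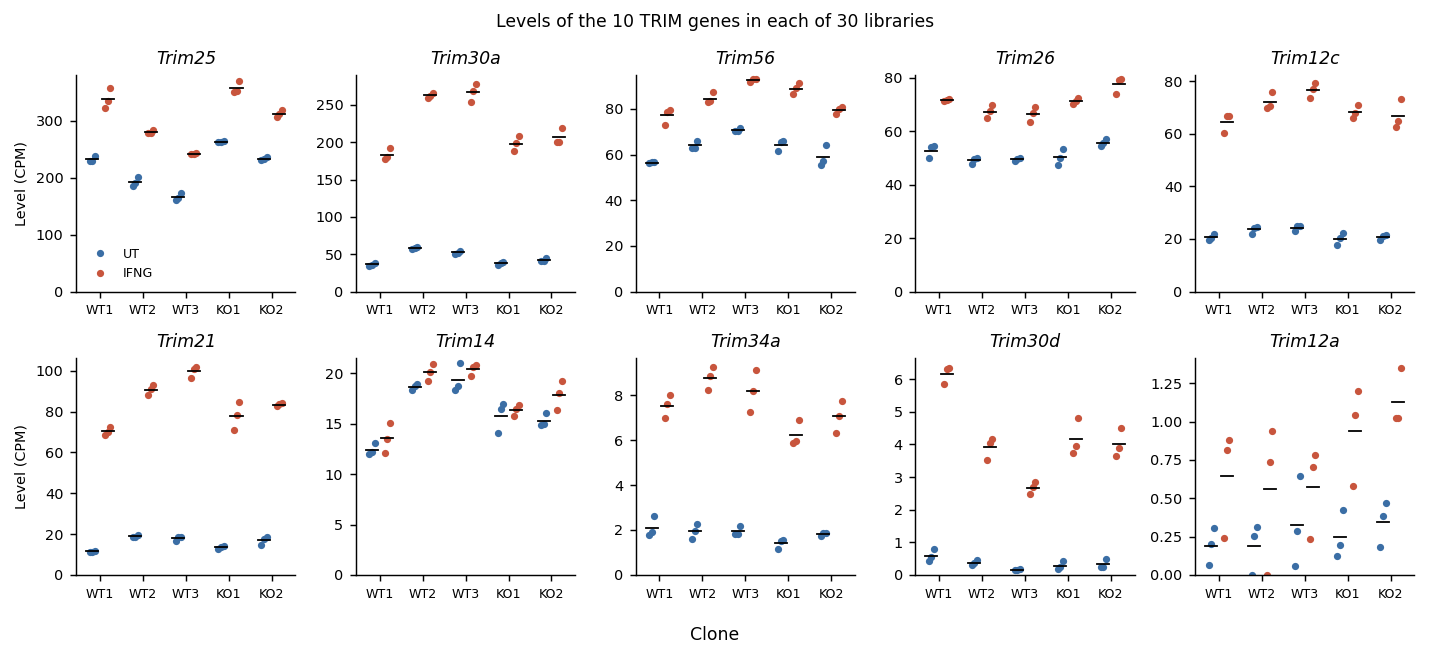
CPM of each gene in each of 30 libraries, drawn by clone, with UT libraries in blue, IFNG libraries in red, a bar at the mean of 3 libraries, and each panel on its own linear axis from 0. Trim21, Trim30a, Trim30d, Trim34a, Trim12c, Trim26 and Trim56 show no overlap of UT with IFNG libraries, and WT1 lies below WT2 and WT3 for Trim14, Trim21 and Trim30a.

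Trim25, Trim56 and Trim26 had smaller fold changes. Trim25 attaches ubiquitin chains to the RNA sensor RIG-I. It was at 161 to 238 CPM (median 190.2) in UT WT and 241 to 357 (median 278) in IFNG WT libraries, and at 231 to 264 (median 249) and 307 to 371 (median 335) in KO libraries. UT and IFNG libraries separated within WT and within KO, though not over all 30, because UT libraries of KO1 (262 to 264 CPM) exceeded IFNG libraries of WT3 (241 to 243 CPM). The log2FC was 0.42 to 0.56 (SE at most 0.0604), or 1.34- to 1.47-fold, with edgeR adjusted p of at most 1.3e-05.

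Trim56, an E3 ligase that acts on the STING and TLR3 pathways, was at 55.4 to 71.5 CPM (median 63.0) in UT and 72.9 to 93.2 CPM (median 83.5) in IFNG libraries, which did not overlap. Its log2FC of 0.40 to 0.50 (SE at most 0.0606) equals 1.32- to 1.41-fold. Trim26, encoded in the major histocompatibility region and known to target nuclear IRF3, was at 47.4 to 56.9 CPM (median 49.96) in UT and 63.6 to 79.6 CPM (median 71.2) in IFNG libraries, likewise without overlap. Its log2FC was 0.43 to 0.54 (SE at most 0.0614). Trim25 and Trim56, without an ISRE core in the promoter window, had log2FC of 0.40 to 0.56, a range that holds the values of Trim26, which has such a match.

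Trim14 lacks a RING finger and serves as an adaptor of MAVS and a stabiliser of cGAS. It was the one member with overlapping treatments in WT and in KO, at 11.98 to 21.1 CPM (median 16.5) untreated and 12.1 to 20.9 (median 18.03) with IFNG. Its log2FC was 0.08 to 0.12 in WT1, WT2, WT3 and KO1, with edgeR adjusted p from 0.185 to 0.53. In KO2 it was 0.23 ± 0.08 (adjusted p = 0.0366), a call that was lost in 6 of 11 alternative analyses. Pooled, its log2FC was 0.11 in WT (adjusted p = 0.646) and 0.15 in KO (adjusted p = 0.0823), and with clone as a block both passed, at 0.11 ± 0.04 (adjusted p = 0.0434) and 0.15 ± 0.06 (adjusted p = 0.0449). Of its exon length, 31.3% overlaps Nans on the opposite strand, which strand-specific counting keeps apart.

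Whether the response differed between genotypes was tested by an interaction term over all 30 libraries. In that fit clone was a term for level only, and each library counted as a replicate of the response. Differences in response between clones of the same genotype were not allowed for. The intervals and p-values of the interaction, here and below, may therefore be too narrow or too small for a difference between genotypes. By edgeR, 0 of 10 members were called (1.02% of all genes), 1 had an unadjusted p under 0.05, and DESeq2 called 0. That one was Trim25, whose log2FC was lower in KO by 0.11 (SE 0.0346, adjusted p = 0.166), with responses of 0.54 in pooled WT and 0.45 in pooled KO. For the strongly raised genes the interval of the difference (2 SE on each side) was -0.19 to 0.11 for Trim21, -0.05 to 0.17 for Trim30a, -0.05 to 0.20 for Trim12c, -0.23 to 0.30 for Trim34a and -0.32 to 0.65 for Trim30d. A test for any difference in response among the 5 clones called 0 of 10 members by edgeR (3.68% of all genes), with 2 at an unadjusted p under 0.05, and DESeq2 called 0. Those 2 were Trim21 (adjusted p = 0.0958) and Trim30a (adjusted p = 0.404).

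Levels, as opposed to responses, varied a good deal among the WT clones themselves. In UT libraries, 7 of 9 tested members differed among WT1, WT2 and WT3 by the edgeR test with 2 degrees of freedom, as did 59.5% of all genes. In IFNG libraries 7 of 10 differed, with 52.1% of all genes. Both counts exceed the background share by 1 or 2 genes. This test was chosen after the data had been seen. Trim14 in UT cells averaged 12.4 ± 0.57 CPM (SD, n = 3) in WT1, 18.7 ± 0.31 in WT2 and 19.4 ± 1.495 in WT3, so the libraries of WT1 lay below those of both others. Trim21 averaged 11.5, 18.9 and 17.98 CPM in the same order, and Trim30a 36.3, 58.8 and 52.4 CPM, with WT1 again lowest. After IFNG, WT1 stayed lowest for Trim14 (13.6 CPM), Trim21 (70.3 CPM), Trim30a (183 CPM), Trim12c (64.5 CPM) and Trim56 (77.1 CPM). Trim25 ran the other way, at 232 ± 5.02 CPM in WT1, 192 ± 7.60 in WT2 and 166 ± 6.57 in WT3 untreated. Trim30d was also highest in WT1 and lowest in WT3, at 0.591 ± 0.185, 0.380 ± 0.087 and 0.160 ± 0.016 CPM, a ratio of 3.70 between WT1 and WT3, which was 2.31 after IFNG (6.16 against 2.67 CPM).

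KO and WT clones differed in few members when all WT clones were used. Untreated, 1 of 9 tested members was called (26.6% of all genes), namely Trim25, which was higher in KO by 0.33 ± 0.09 on the log2 scale (edgeR adjusted p = 0.0111). Its UT mean was 263 ± 0.99 CPM in KO1 and 233 ± 2.72 in KO2, so that KO1 exceeded every WT library while KO2 lay level with WT1. In KO1 alone 2 of 9 were called (25.7% of all genes). These were Trim25 (0.41 ± 0.12, adjusted p = 0.0207) and Trim34a, which was lower by 0.52 ± 0.17 (adjusted p = 0.0361) at 1.41 ± 0.22 CPM. In KO2 alone edgeR called 0 of 10 (11.6% of all genes) with 1 at an unadjusted p under 0.05, Trim26, which DESeq2 did call.

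With IFNG, 2 of 10 members were called between KO and WT (23.9% of all genes). Trim34a was lower in KO by 0.29 ± 0.08 (edgeR adjusted p = 0.0192), at 5.86 to 7.75 CPM in KO against 6.97 to 9.25 CPM in WT libraries, which overlap. Trim26 was higher by 0.12 ± 0.04 (adjusted p = 0.0351), at 70.3 to 79.6 against 63.6 to 72.1 CPM, also overlapping. KO1 alone gave 1 of 10 (20.9% of all genes), Trim34a at -0.38 ± 0.11 (adjusted p = 0.023). KO2 alone gave 1 of 10 (10.0% of all genes), Trim26 at 0.18 ± 0.05 (adjusted p = 0.0435), where its libraries (74.0 to 79.6 CPM) exceeded every WT library. With all 3 WT clones in the fit, the share of members called did not exceed that of all genes in any of these comparisons.

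The outcome turned on WT1. Without that clone, 6 of 8 tested members were called between KO and WT untreated and 7 of 10 with IFNG, in place of 1 of 9 and 2 of 10. The calls over all genes rose as well, from 26.6% to 47.8% untreated and from 23.9% to 44.8% with IFNG. Against WT2 and WT3 only, KO1 gave 6 of 8 members untreated (51.0% of all genes) and 5 of 10 with IFNG (46.5%), and KO2 6 of 8 (40.6%) and 7 of 10 (37.0%). Untreated, Trim30a was then lower in KO by 0.47 ± 0.06 (edgeR adjusted p = 1.05e-05), Trim14 by 0.29 ± 0.05 (adjusted p = 0.000513), Trim21 by 0.27 ± 0.09 (adjusted p = 0.0173), Trim12c by 0.23 ± 0.06 (adjusted p = 0.0043) and Trim56 by 0.13 ± 0.05 (adjusted p = 0.0448). Trim25 was higher by 0.47 ± 0.06 (adjusted p = 7.79e-06). With IFNG, Trim30a was lower by 0.39 ± 0.04 (adjusted p = 9.37e-07), and Trim34a, Trim14, Trim21 and Trim12c were lower as well. Trim25 (0.36 ± 0.06) and Trim26 (0.15 ± 0.04) were higher. WT1 was singled out because it stood apart in several of these genes, so calls made without it are not independent evidence. Untreated KO means of Trim30a (37.9 and 42.0 CPM), Trim14 (15.8 and 15.3) and Trim21 (13.6 and 16.9) lay between WT clone means. The same held for Trim56. Trim12c in KO1 lay below all WT clone means and Trim25 in KO1 above them. When counts were summed per clone, so that 3 WT clones met 2 KO clones, edgeR called 0 members in either treatment. Trim25 then stood at 0.33 ± 0.15 (adjusted p = 0.475) untreated, and Trim34a with IFNG at -0.28 ± 0.135 (adjusted p = 0.5). Leaving out KO1 ended the untreated call of Trim25 (0.24 ± 0.12, adjusted p = 0.219) and the IFNG call of Trim34a (-0.21 ± 0.10, adjusted p = 0.244), and leaving out KO2 ended that of Trim26 (0.07 ± 0.05, adjusted p = 0.373). Leaving out WT2 also ended the IFNG calls of Trim34a (-0.24 ± 0.09, adjusted p = 0.093) and Trim26 (0.11 ± 0.05, adjusted p = 0.139), and leaving out WT3 that of Trim26 (0.10 ± 0.05, adjusted p = 0.151).

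Several calls made for a single KO clone were also lost when 1 library or WT clone was left out. Untreated in KO1, Trim25 fell short of the threshold without any 1 of the 3 KO1 libraries (0.41, adjusted p from 0.0707 to 0.0714) and without WT2 (0.39, adjusted p = 0.0667). Trim34a fell short there without any 1 KO1 library (-0.60 to -0.39, adjusted p from 0.0621 to 0.184), without WT2 (-0.53, adjusted p = 0.0575) and without WT3 (-0.53, adjusted p = 0.0783). In KO1 with IFNG, Trim34a was no longer called without either of 2 KO1 libraries (-0.33 and -0.35, adjusted p = 0.116 and 0.101) or WT2 (-0.32, adjusted p = 0.0813). In KO2 with IFNG, Trim26 was no longer called without any 1 KO2 library (0.16 to 0.21, adjusted p from 0.0575 to 0.2), WT2 (0.17, adjusted p = 0.132) or WT3 (0.16, adjusted p = 0.117). The direction was kept in each of these fits.

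**Figure D4:**
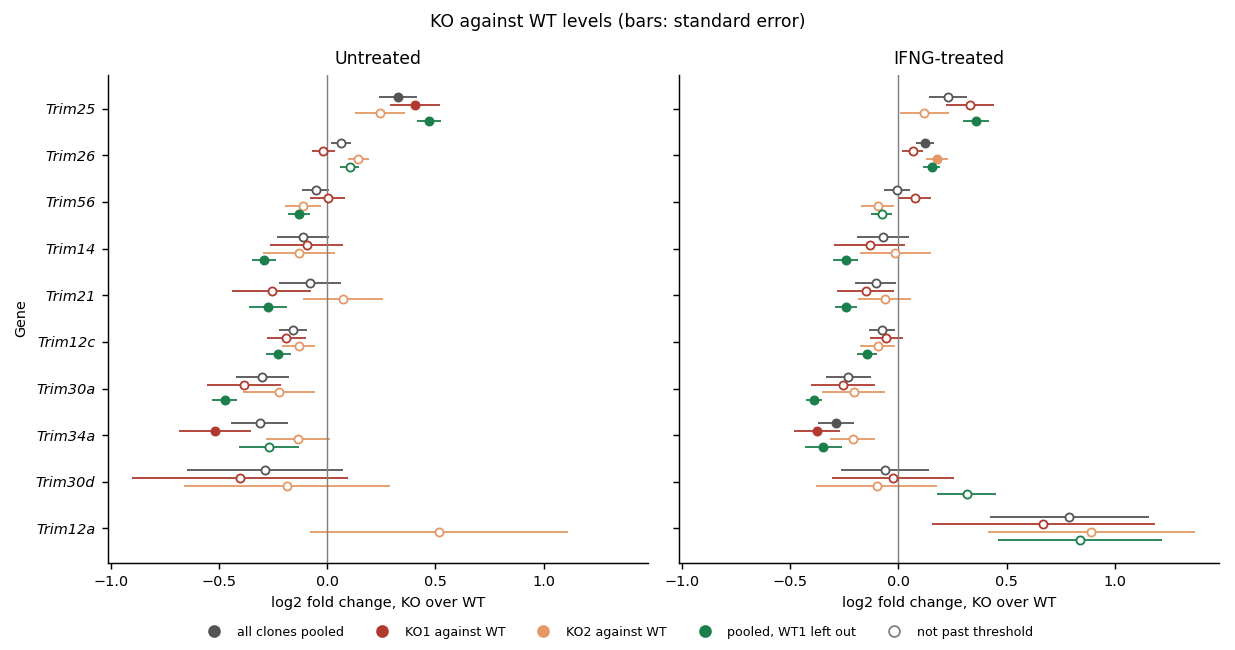
Log2 fold change of KO over WT libraries for each gene, untreated (left) and with IFNG (right), for both KO clones pooled (grey), KO1 (red), KO2 (orange) and both pooled against WT2 and WT3 only (green), with bars of 1 standard error and filled points where the edgeR adjusted p was under 0.05. With WT1 left out, Trim30a moves to -0.47 untreated and -0.39 with IFNG, and Trim25 to 0.47 and 0.36.

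The differences called in KO clones were set beside the shift of genes nearby. A shift is the mean log2(CPM + 0.5) of a clone less the average of WT1, WT2 and WT3, leaving out the clone itself where it is WT. It was centred on the median of all genes that averaged 1 CPM or more. For Trim26 in KO2, the own shift was 0.138 untreated and 0.168 with IFNG, and the median of the 151 genes within 5 Mb was 0.144 and 0.151. Over all 622 genes of chromosome 17 the median shift in KO2 was 0.196 and 0.187. In KO1, whose chromosome 17 shift was 0.192 and 0.190, Trim26 itself shifted by -0.0231 and 0.0536. The 151 genes nearby shifted there by 0.157 untreated and 0.162 with IFNG. The chromosome was also raised in WT1, by 0.244 in both treatments, where Trim26 shifted by 0.110 untreated and 0.0971 with IFNG. The genes nearby shifted in WT1 by 0.360 and 0.348, so Trim26 lay at the level of its neighbours in KO2 but below them in KO1 and WT1. For Trim25 the 62 genes nearby had a median shift of 0.0174 in KO1 and 0.00980 in KO2 untreated, against 0.415 and 0.252 for the gene itself. For Trim34a in KO1, the 78 genes nearby shifted by 0.0397 untreated and 0.0909 with IFNG, against -0.401 and -0.366 for the gene. The 7 genes within 1 Mb of Trim34a had a median shift of -0.0952 in KO1 and 0.0209 in KO2 untreated, and of -0.219 in KO1 and -0.262 in KO2 with IFNG. In WT1 the same genes shifted by -0.0792 untreated and -0.147 with IFNG, so lower values there were not limited to KO clones. Only members were left out of this window, so it held the relatives Trim34b, Trim30b and Trim30c, which IFNG raised. It also held Gm27995, which shares exon bases with Trim12c. The part of copy number in these values was not tested.

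**Figure D5:**
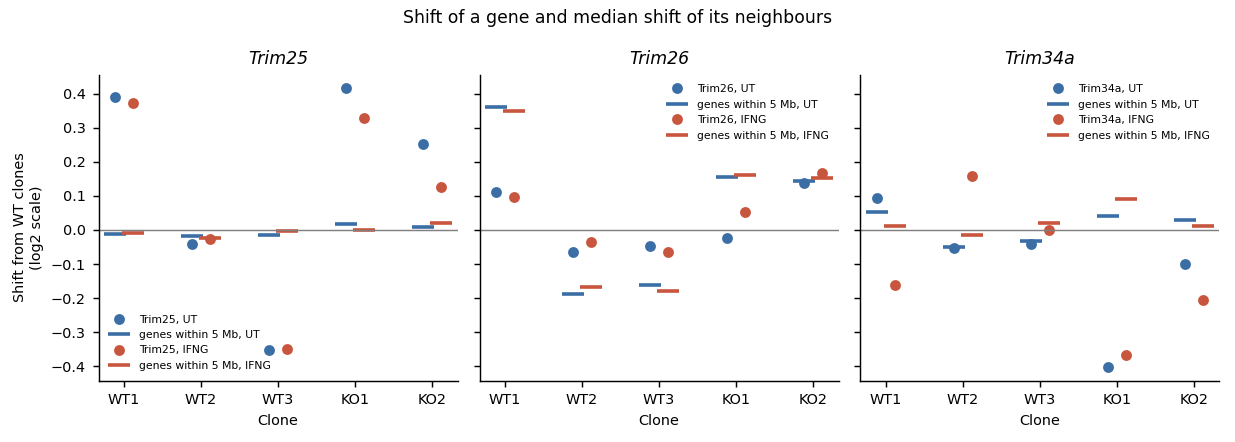
Shift of Trim25, Trim26 and Trim34a from the WT clones (points) and median shift of genes within 5 Mb (dashes) in each clone, untreated (blue) and with IFNG (red), on the log2 scale. In KO2 the points of Trim26 lie at the dashes of its neighbours (0.138 against 0.144 untreated), whereas Trim25 lies at 0.415 in KO1 with neighbours near 0. Trim26 lies below its neighbours in KO1 (-0.0231 against 0.157 untreated) and in WT1 (0.110 against 0.360 untreated).

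Of 63 other TRIM family genes listed, 36 were tested in pooled WT, where 9 rose and 12 fell (28.6% of all genes were called in either direction), and in pooled KO 10 rose and 13 fell (30.7%). Their median log2FC was -0.02 in WT and 0.02 in KO, beside a median near 0 over all genes. Genes that passed in both with a log2FC of at least 1 in size included Trim30c, Trim30b, Trim34b and Trim5, which lie in the chromosome 7 cluster. In pooled WT and pooled KO the log2FC was 3.38 and 2.87 for Trim30c, 2.76 and 2.45 for Trim30b, 2.58 and 2.38 for the pseudogene Trim30e-ps1, 2.07 and 2.07 for Trim34b and 1.93 and 2.16 for Trim5. Pml, the scaffold of nuclear bodies and itself a TRIM protein, rose by 1.97 and 1.82. The interaction called 1 of 37 tested, Trim11, whose rise was smaller in KO (0.45 against 0.78, adjusted p = 0.0209). Between KO and WT, edgeR called 9 of 35 untreated (26.6% of all genes) and 7 of 36 with IFNG (23.9%). Trim30b, Trim30c and Trim34b were among those called with IFNG.

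A list of 20 substrates, adaptors and ubiquitin enzymes that work with these proteins had 9 genes up and 2 down in pooled WT (28.6% of all genes called), and 7 up and 2 down in pooled KO (30.7%). Isg15, a ubiquitin-like modifier, rose by 3.16 in WT and 3.45 in KO on the log2 scale. Tmem173, which encodes STING, rose by 1.64 in both. Ddx58, which encodes RIG-I, the substrate of Trim25, rose by 1.36 in WT and 1.69 in KO, with an interaction of 0.32 ± 0.07 (edgeR adjusted p = 0.0192), from UT means of 24.1 CPM in WT and 17.1 CPM in KO to 61.5 and 54.6 CPM with IFNG. Nlrp3, an inflammasome sensor, fell by 1.09 in WT and by 0.65 in KO, and the interaction was 0.45 ± 0.07 (adjusted p = 0.000472). These were the 2 of 20 listed genes called for the interaction (1.02% of all genes). Both were also among 5 of 20 whose response differed among the 5 clones (3.68% of all genes).

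Likeness of pattern was taken as Pearson's r of mean log2(CPM + 0.5) over the 10 clone and treatment groups, which share clones and treatment, over 12947 genes. The gene most like Trim12c was Gbp3 (r = 0.998), that most like Trim30a was Ifi203 (r = 0.998), and that most like Trim34a was Fcgr4 (r = 0.998), with Gm44075 for Trim21 (r = 0.996) and Tagap for Trim30d (r = 0.993). For the weakly raised genes they were Gm10425 for Trim26 (r = 0.986), Taf1d for Trim25 (r = 0.982) and Rchy1 for Trim56 (r = 0.979). Trim14 was most like Tpm3-rs7 (r = 0.986) and Trim12a most like Frem2 (r = 0.951). Genes with r of at least 0.95 numbered from 1 for Trim12a to 370 for Trim12c, with 325 for Trim30a and 340 for Trim34a. The gene named is therefore often 1 of many that were nearly as alike. Some of the named genes were low themselves. Gm10425 averaged only 0.339 CPM untreated and 0.909 CPM with IFNG, Gm44075 0.721 and 3.765 CPM, and Frem2 0.432 and 4.43 CPM. Trim14 and Trim25 had r = -0.292 with each other.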

How the data were processed

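RNA-seq libraries of J774A.1 clones were grouped by clone and treatment from the labels and column names. Column names gave WT1 as wt1, but WT2 and WT3 as wtc1 and wtc3. These were matched through the comparison deposited for each clone, which held only those columns. The deposited values are raw counts. The authors obtained them with BBDuk, HISAT2 2.1.0 on mm10, SAMtools 1.10 and featureCounts 1.6.2 (unique alignments, reverse strand, fragments over overlapping genes counted for each). The methods name a RefSeq annotation and the table header Gencode vM18. Columns carried no replicate number. The other 13 tables held the same counts, and their fold changes and p-values by the authors were not used.

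Tests used edgeR 4.0.16 under R 4.3.3 over all genes (low counts removed by filterByExpr, TMM factors, glmQLFit, glmQLFTest), with Benjamini-Hochberg adjustment and a threshold of 0.05. The SE is the absolute log2FC over the square root of F. CPM used TMM factors from 14870 genes, and FPKM the exon lengths deposited with the counts. Alternatives were DESeq2 1.42.0, RLE factors, other count filters, a joint fit, blocking on clone, sums per clone, and leaving out libraries or clones. The edgeR script was tested on simulated data. Depth was 15566122 to 37992642 counts, and the SE gives the precision reached. Members, lists and tests were chosen with earlier results of these data known. The text names all 10 members, listed genes past the threshold in both pooled responses with an absolute log2FC of at least 1, and Trim11, chosen after its values were seen. Python 3.11.15, numpy 2.4.6, pandas 2.3.3 and matplotlib 3.10.9 made tables and figures.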

Additional observations from a re-analysis of the deposited data

Results flagged for a closer look

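Trim12a stood at 0.642 CPM in 1 UT library of WT3, against 0.312 CPM in the next highest of the 9 WT UT libraries, which is past the 95% limit of Dixon's test for a single value that stands apart. It rests on 15 fragments, where the other 8 libraries held at most 8 each. Of 40 groups of libraries looked at, 1 was picked out, and chance picks about 1 in 20.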

How the results depend on the processing

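Of 1531 values of single members under alternatives, 1449 kept their side of the threshold, 45 lost a call, 37 gained one and 0 called values changed sign. Some values not called in either fit did change sign. Trim14 in KO against WT untreated, for example, had a log2FC of -0.11 and reached 0.0079 under an alternative. Tests for any difference among clones gave adjusted p-values that have no direction. For the 8 members called in all clones, 554 of 554 alternative IFNG responses stayed past the threshold. No paired analysis was possible because the table's columns carry no replicate number, so the replicate block was not run. Only 2 KO clones limit every KO comparison.

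For KO against WT untreated, members called went from 1 to 0 with counts summed per clone and to 0 to 6 on leaving out clones. With IFNG they went from 2 to 0 without a count filter or with counts summed per clone, and to 0 to 7 on leaving out clones. KO1 untreated went from 2 to 1 without a count filter and to 0 to 6 on leaving out libraries or clones. KO2 untreated went from 0 to 1 with DESeq2 and to 0 to 6. KO1 with IFNG went from 1 to 2 with DESeq2 and to 0 to 5, and KO2 with IFNG from 1 to 0 without a filter and to 0 to 7. Among WT clones, leaving out 1 gave 3 to 7 untreated and 2 to 7 with IFNG, the lowest without WT1. The cause was not tested.

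Over all genes, pooled WT responses went from 3840 to 6190 with clone as a block, KO against WT from 3689 (untreated) and 3258 (IFNG) to 1 with counts summed per clone, the interaction from 151 to 384 and the test among 5 clones from 547 to 919 without a filter. With RLE factors 3 of 100 levels moved by over 1 SD, Trim25 to 243.1 CPM in WT3 with IFNG and 261.6 CPM in KO1 untreated, and Trim26 to 70.9 CPM in WT1 with IFNG. The shift near Trim25 in KO1 untreated was 0.0651 within 1 Mb and -0.0156 within 10 Mb. Near Trim26 untreated it was 0.104 (KO1) and 0.114 (KO2) within 1 Mb and 0.175 (KO2) within 10 Mb. Near Trim34a it was -0.0952 (KO1 untreated), -0.219 (KO1, IFNG) and -0.262 (KO2, IFNG) within 1 Mb, and 0.0248 (KO2, IFNG) over genes of at least 5 CPM.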
